A study of Arabidopsis thaliana with 4 samples.

Results

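The open regions described here overlap Arabidopsis gene bodies, some of them mainly past the gene end, and lie outside a window around every gene start. Of 27679 regions obtained by merging overlapping ATAC peaks, 18340 had a peak in all 4 libraries. Of those, 1734 overlapped a TAIR10 gene body but no window from 1 kb upstream to 200 bases downstream of a gene start, after intervals around the centromeres had been left out. They were split into 1145 regions over a gene's last base (3' end), 360 with the midpoint in an exon and 229 with the midpoint in an intron. Nuclei came from the root tip (5 mm) of Col-0 plants, the standard laboratory accession, grown either on control medium or under osmotic stress. Each group had 2 libraries, which the study calls biological replicates, and p-values measure the spread between these libraries. A transposase cut open DNA in single nuclei, and the cut sites in each region were counted.

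Most open chromatin in a plant genome lies just upstream of genes, where transcription factors and the transcription machinery displace nucleosomes. Open stretches inside genes can hold intronic enhancers, starts of shorter transcripts or the nucleosome-poor tract at which transcripts are cleaved and polyadenylated. In compact genomes the end of one gene often lies next to the end or the start of another, so an open 3' end can belong to more than one gene.

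The sequences below are the central 300 bases of 6 of these regions (RefSeq TAIR10.1, whose nuclear chromosomes have the TAIR10 sequence), read 5' to 3' on the strand of the gene. The first 4 are the intron regions that rose under stress and were intronic over most of their bases. AT3G04050 had the largest fall and lies past its gene's end, and AT4G37690 is a coding stretch with one of the highest levels. Capitals mark TATAAATA, TTTTTTTT or either one's reverse complement, the only motifs of the 10 searched that occur in them.
PHT1;8 intron, chr1:7257329-7257628, minus strand: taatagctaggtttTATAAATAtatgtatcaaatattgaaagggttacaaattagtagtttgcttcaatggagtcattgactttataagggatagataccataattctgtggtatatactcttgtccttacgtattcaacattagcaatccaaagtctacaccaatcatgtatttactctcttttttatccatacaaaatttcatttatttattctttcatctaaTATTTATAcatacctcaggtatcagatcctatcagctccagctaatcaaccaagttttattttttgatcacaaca
YSL7 intron, chr1:24443518-24443817, plus strand: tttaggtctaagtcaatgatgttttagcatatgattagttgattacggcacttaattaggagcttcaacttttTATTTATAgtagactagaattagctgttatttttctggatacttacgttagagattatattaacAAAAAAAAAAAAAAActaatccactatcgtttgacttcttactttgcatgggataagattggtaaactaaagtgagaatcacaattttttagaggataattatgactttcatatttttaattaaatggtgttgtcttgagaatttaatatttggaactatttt
AT2G31110 intron, chr2:13259960-13260259, minus strand: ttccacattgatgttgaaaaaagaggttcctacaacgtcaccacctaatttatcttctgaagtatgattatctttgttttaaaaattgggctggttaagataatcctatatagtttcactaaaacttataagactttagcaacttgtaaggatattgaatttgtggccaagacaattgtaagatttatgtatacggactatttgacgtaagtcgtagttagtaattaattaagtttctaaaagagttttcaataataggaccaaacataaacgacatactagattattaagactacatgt
SNRK2.9 intron, chr2:9804958-9805257, minus strand: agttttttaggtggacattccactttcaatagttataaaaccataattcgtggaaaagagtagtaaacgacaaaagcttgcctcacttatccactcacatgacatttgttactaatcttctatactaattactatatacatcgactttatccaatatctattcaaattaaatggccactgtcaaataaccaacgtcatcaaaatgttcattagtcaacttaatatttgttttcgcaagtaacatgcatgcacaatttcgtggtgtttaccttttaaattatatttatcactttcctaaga
AT3G04050 past the gene end, chr3:1051730-1052029, plus strand: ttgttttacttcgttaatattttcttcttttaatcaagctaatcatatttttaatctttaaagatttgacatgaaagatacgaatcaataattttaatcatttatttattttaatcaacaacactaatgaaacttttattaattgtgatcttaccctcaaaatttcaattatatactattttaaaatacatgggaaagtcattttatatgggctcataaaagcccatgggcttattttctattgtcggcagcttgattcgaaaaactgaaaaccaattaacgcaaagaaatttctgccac
AT4G37690 coding exon, chr4:17709115-17709414, plus strand: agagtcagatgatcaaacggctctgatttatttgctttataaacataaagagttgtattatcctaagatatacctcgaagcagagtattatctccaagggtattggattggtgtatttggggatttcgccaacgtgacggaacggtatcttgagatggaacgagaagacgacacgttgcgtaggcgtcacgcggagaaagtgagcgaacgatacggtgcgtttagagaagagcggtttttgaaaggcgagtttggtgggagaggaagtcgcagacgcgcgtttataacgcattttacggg

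The PHT1;8 window holds TATAAATA once on each strand, and the YSL7 window holds it once beside a run of A. The first 5 windows are rich in A and T, with a GC content of 29.0%, 26.3%, 29.7%, 30.7% and 26%, against 45.7% in the coding window of AT4G37690. The same TATAAATA motif occurred on either strand in the central 300 bases of 20 of 229 intron regions (8.73%), 13 of 360 exon regions (3.61%) and 71 of 1145 3' end regions (6.20%), against 6.70% of all 18340 shared regions. It occurred in 4 of the 17 regions that rose, a set chosen by its values and therefore not tested.

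The 1734 regions were each assigned to a gene that they overlap, 1686 genes in all, of which 48 had a pair of them. The genes were protein coding for 1683 regions (97.1%), noncoding RNA genes for 28 and pseudogenes for 23. Host genes were long, with a median of 3715 bases at intron regions, 3146.5 at exon regions and 2395 at 3' ends, against 2078 over 27444 coding genes. The rule removes regions near a start, so a short gene could hold one only towards or past its end, as at HRD (555 bases). Widths were alike in the 3 classes, with medians of 898 bases for intron, 887 for exon and 903 for 3' end regions, so that a region usually spans more than the exon or intron at its midpoint. Only 43 of 229 intron regions and 88 of 360 exon regions lay wholly within that intron or exon.

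Intron regions mostly lay in the longest intron of their gene. Intron 1 held 71 of them (31.0%), intron 2 held 69 (30.1%) and intron 3 held 36 (15.7%), while 50 lay in intron 4 or later. The intron at the midpoint was 725 bases long at the median, against 286 bases for the longest intron of each of 22245 coding genes with introns. In 168 of 229 (73.4%) it was the longest intron of its gene. A longer intron holds more bases in which a midpoint can fall, and these values were not corrected for length. Midpoints of exon regions fell in the coding sequence in 242 of 360 (67.2%) and in the last exon in 135 (37.5%). An annotated start of a shorter transcript lay in 38 exon regions (10.6%) and 19 intron regions (8.30%), against 1 region at a 3' end.

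At 3' ends the midpoint lay past the last base in 624 of 1145 regions (54.5%) and within 200 bases of it in 637. Ends of 2 genes fell inside 263 of them (23.0%), and over all classes 315 regions touched more than 1 gene body. Cut sites there cannot be given to either gene.

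**Figure D1:**
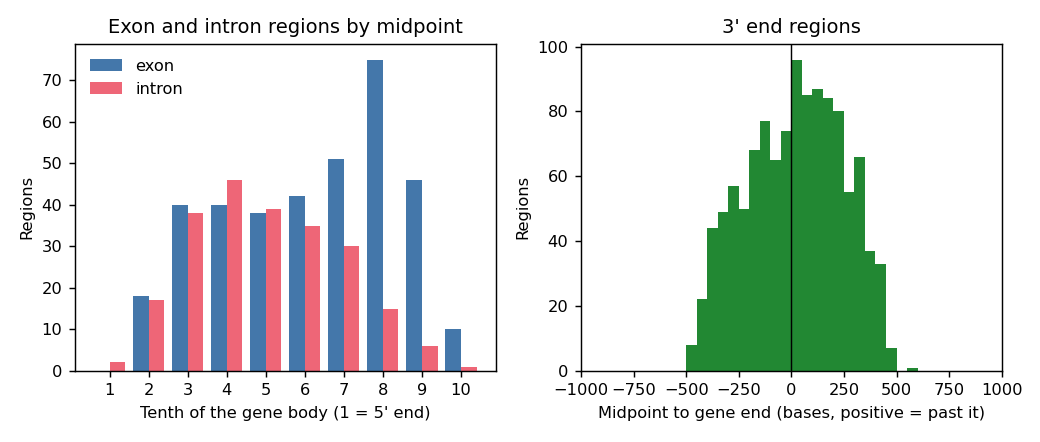
Position of the gene-body regions. Left, number of exon and intron regions by the tenth of the gene body that holds the midpoint, in which exon regions peak in the tenth numbered 8 with 75 and intron regions in the tenth numbered 4 with 46. Right, number of 3' end regions in steps of 50 bases by distance of the midpoint from the gene end, with 624 of 1145 past it.

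Exon regions had the highest GC content of the 3 classes. Their median was 40.0%, against 35.0% for intron regions, 34.7% for 3' ends and 35.7% for the 13549 shared regions at gene starts. Sequence motifs known from Arabidopsis promoters were sought by their letters on both strands of the central 300 bases, and a match is only a match of letters. GAGAGAGA, the repeat bound by GAGA-binding proteins, was found in 4.44% of exon, 6.55% of intron and 4.45% of 3' end regions, against 12.3% at gene starts and 10.8% of all shared regions. AAACCCTA, the telo-box of many ribosomal protein promoters, was found in 3.61%, 2.18% and 1.57%, against 6.97% at gene starts and 6.0% of all shared regions. The cell-cycle motif TTTCCCGC occurred in 4 exon and 3 intron regions and in none of the 1145 3' ends, against 0.731% of all shared regions.

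The other motifs searched gave the following shares. CACGTG, the G-box, was found in 12.2% of exon, 16.2% of intron and 11.9% of 3' end regions, against 13.4% of all shared regions. ACGTGGC, which can overlap a G-box and is a core of the abscisic acid (ABA) response element, was found in 8.33%, 4.37% and 4.19%, against 7.17%. ACCGAC, bound by DREB factors, was found in 10.8%, 8.30% and 8.38%, against 8.47%. TTGACC, bound by WRKY factors, was found in 21.7%, 18.8% and 17.4%, against 16.7%. TGGGCC was found in 23.3%, 13.5% and 27.2%, against 27.4%, and TTTTTTTT in 11.7%, 23.1% and 23.9%, against 26.6%.

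Gene-body regions were slightly less open than gene starts. After scaling to CPM (the count of a region relative to all counts in shared regions of its library, in parts of 1e+06) and per kb of region, their median in control replicates 1 and 2 and stress replicates 1 and 2 was 53.2, 53.0, 52.8 and 53.1, against 57.9, 58.6, 58.6 and 58.8 at gene starts. The difference of the medians was -0.14 ± 0.01 on the log2 scale (SD, n = 4 libraries), with gene-body regions lower in 4 of 4 libraries. An exact sign-flip test over the libraries gave p = 0.13, two-sided, the smallest it can give. The difference was -0.06 ± 0.01 for exon regions, -0.12 ± 0.04 for intron regions and -0.16 ± 0.02 for 3' ends, each with p = 0.13 in the same exact test. Intron regions were closer to gene starts in the stress libraries (-0.09 and -0.07) than in the control libraries (-0.16 and -0.14).

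Where the host gene's own start held a shared region, the 2 could be set side by side. This was so for 1040 of the 1734 regions, and the gene-body region had the higher CPM per kb in 366 of them. The median log2 ratio was -0.23 for exon regions, -0.08 for intron regions and -0.30 for 3' ends.

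Gene-body regions took up 8.76% and 8.79% of the counts in shared regions under control conditions, and 8.76% and 8.78% under stress. Means of both groups were 8.77% ± 0.02 (SD, n = 2), and the difference did not exceed that spread (exact permutation test, two-sided, p = 0.667). By class the share went from 1.11% ± 0.03 to 1.15% ± 0.0001 for intron regions and from 5.74% ± 0.03 to 5.67% ± 0.01 for 3' ends, with no overlap between the groups and p = 0.33 for each in the exact test, the smallest that 2 against 2 libraries allow.

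The most open members differed by class. Among exon regions the highest CPM per kb was at DTA2, named as a downstream target of the MADS-domain factor AGL15, with 170.6, 187, 183 and 179.8 CPM in control replicates 1 and 2 and stress replicates 1 and 2. AT4G37690, a galactosyltransferase family gene without introns, had 159, 178, 172 and 167 CPM. CYP86A4, a fatty acid hydroxylase of the cytochrome P450 family involved in cutin synthesis, had 121, 134, 147 and 147 CPM. In these 3 the midpoint was in coding sequence, and stress and control did not differ past the threshold (adjusted p = 0.935, 0.971 and 0.232 by edgeR).

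Intron regions reached lower maxima. AT3G61028, annotated as a putative endonuclease or glycosyl hydrolase, had 95.5, 108, 100.6 and 90.3 CPM in its last intron. AT1G80610 had 81.6, 101, 108 and 110.4 CPM and AT1G15800 had 89.5, 105, 105 and 107 CPM, both in intron 1, and both are annotated without a known function. In these last 2 genes control replicate 1 had the lowest value of the 4 libraries.

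At 3' ends the highest level was at VHA-A3, a subunit of the proton pump of the vacuolar membrane, with 173, 168, 163 and 156 CPM in a region that also touches AT4G39090. The 3' end of the pseudogene AT5G01335 had 148, 145, 136 and 136 CPM. A region at the end of the long noncoding RNA AT4G03585 had 119, 135, 145 and 144 CPM and lies over coding sequence of AT4G00360. None of the 3 passed the threshold (adjusted p = 0.567, 0.459 and 0.278 by edgeR).

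Whether osmotic stress changed the openness of these regions was tested by the quasi-likelihood test of edgeR over all 18340 shared regions, with the p-value adjusted over all of them. The test called 20 of the 1734 gene-body regions at an adjusted p under 0.05, of which 17 rose and 3 fell. The share called was 1.15% of all shared regions (0.927% rose and 0.218% fell), so the 20 are near what the whole table gives. By class 7 of 229 intron regions (3.06%) rose and none fell, 3 of 360 exon regions (0.833%) rose and none fell, and 7 of 1145 3' ends rose and 3 fell (0.873% in all). At an unadjusted p under 0.05 in edgeR, 55 intron regions were higher and 26 lower. For exon regions 44 were higher and 39 lower, and for 3' ends 112 were higher and 184 lower. Of all 18340 shared regions 2401 were higher and 1904 lower, 23.5% in either direction. Adjusted p-values of the 20 ran from 0.0325 to 0.0492, close to the threshold, and their number depended on single libraries. Leaving out either control library gave far more calls, and leaving out either stress library gave fewer. The same held over all shared regions, and these fits leave 1 library in a group. DESeq2 called 257 of the members, against 12.4% of all shared regions with an adjusted p.

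**Figure D2:**
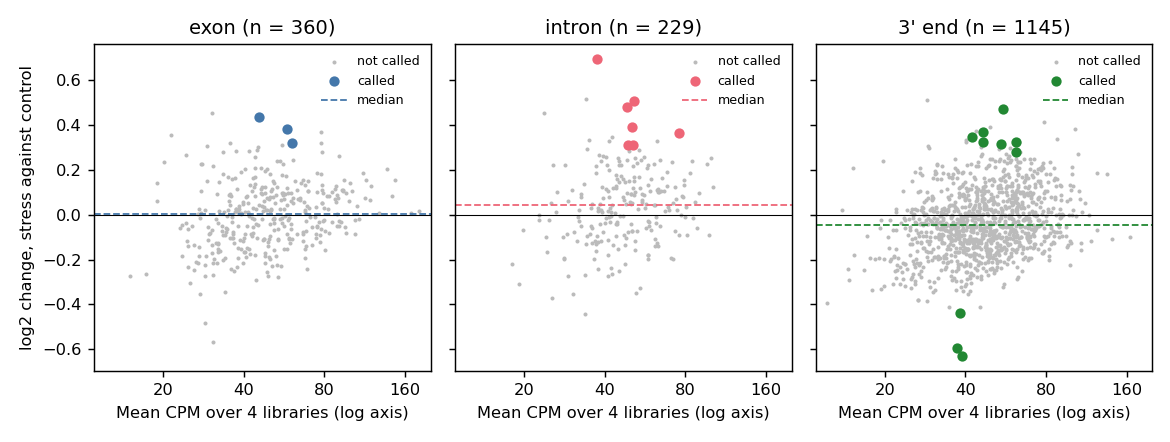
Change of gene-body regions under stress by class. Each point is a region, with its mean CPM over the 4 libraries on a log axis and its log2 change of stress against control, and larger coloured points are called at an adjusted p under 0.05. The dashed line is the class median, 0.00 for exon regions, 0.04 for intron regions and -0.04 for 3' ends.

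The classes as a whole shifted by little. The median log2 change was 0.04 for intron regions, 0.00 for exon regions and -0.04 for 3' ends, against 0.00 for all shared regions. Intron regions were higher under stress in 134 of 229 (58.5%) and 3' ends in 439 of 1145 (38.3%), against 49.2% of all shared regions. Both control libraries lay below both stress libraries in 91 intron regions (39.7%) and in 254 3' ends (22.2%), against 29.4% of all shared regions. The opposite held in 53 intron regions (23.1%) and 407 3' ends (35.5%), against 29.1%.

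Control replicates differed from each other in the same direction. From control replicate 1 to control replicate 2 the median change was 0.03 for intron regions and -0.04 for 3' ends, whereas from stress replicate 1 to 2 it was 0.00 for both. Without control replicate 1 the median change under stress was 0.03 for intron regions and 0.00 for 3' ends, and without control replicate 2 it was 0.06 and -0.07. The shift of the 3' ends was thus no larger than the spread between the control libraries. Over single gene-body regions the median size of the difference was 0.11 between the control libraries, 0.04 between the stress libraries and 0.10 between the groups.

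Among intron regions the largest rise was at PHT1;8, a member of the PHT1 family of phosphate transporters, in the gene's only intron (3066 bases; chr1:7257054-7257905). It had 27.7 and 29.6 CPM under control conditions and 45.2 and 47.8 CPM under stress. The groups did not overlap, with means of 28.7 ± 1.35 and 46.5 ± 1.85 CPM (SD, n = 2 each). The log2 change was 0.70 (SE 0.07, adjusted p = 0.0325 by edgeR), and 8.80%, 6.45%, 8.27% and 8.86% of nuclei had a cut site there in the same order of libraries. These percentages are not scaled to depth, and called nuclei had a median ATAC count of 4851, 3898.5, 3423.5 and 3494 in that order.

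AT2G31110, of the trichome birefringence-like family of polysaccharide acetyltransferases, carried a region in its intron 2 (chr2:13259651-13260570) with 39.5, 45.4, 60.0 and 61.2 CPM. Its log2 change was 0.51 (SE 0.07, adjusted p = 0.0412). ESK1, a member of the same family that acetylates xylan in the cell wall, had 46.1, 45.1, 57.1 and 56.0 CPM in a region centred on intron 3 (98 bases; chr3:20781132-20782089), with a log2 change of 0.31 (SE 0.05, adjusted p = 0.0443). With the peak width as an offset the ESK1 change was 0.14 and no longer called (adjusted p = 0.133 by edgeR). The exons of ESK1 made up 51.8% of its region, whereas the AT2G31110 region held none.

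YSL7, a transporter of the yellow stripe-like family, had 37.6, 43.3, 57.6 and 55.6 CPM in intron 1 (chr1:24443194-24444143), a log2 change of 0.48 (SE 0.07, adjusted p = 0.0412). SNRK2.9, a kinase of the SnRK2 family whose better known members act in osmotic stress and ABA signalling, had 41.8, 45.4, 57.6 and 57.0 CPM in intron 6 (chr2:9804637-9805579). Its log2 change was 0.39 (SE 0.06, adjusted p = 0.0412). The central bases of both regions are among the sequences printed above, while the counts are those of the whole regions.

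AO1, a copper amine oxidase that releases hydrogen peroxide from polyamines, was the most open of the called intron regions, with 66, 66.5, 83.7 and 86.8 CPM around intron 2 (chr4:8542811-8543662) and a log2 change of 0.36 (SE 0.05, adjusted p = 0.0412), or 0.28 with the peak width as an offset (adjusted p = 0.0511). The pseudogene AT5G14830 had 42.9, 44.1, 53.6 and 54.5 CPM and a log2 change of 0.31 (SE 0.05, adjusted p = 0.0443). Exons made up 58.1% and 53.7% of these 2 regions, so that both are intronic by their midpoint only.

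**Figure D3:**
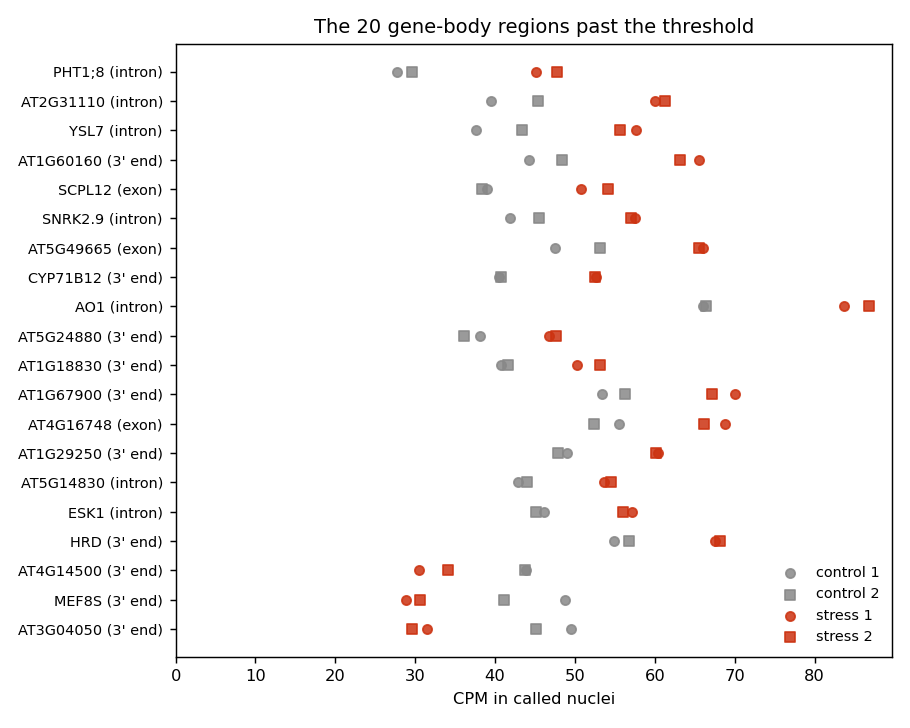
CPM of the 20 called gene-body regions in each library (grey, control; red, stress; circles, replicate 1; squares, replicate 2), ordered by log2 change. The groups do not overlap in any row, which the choice of these regions by the test favours. PHT1;8 has the largest rise, from 27.7 and 29.6 to 45.2 and 47.8 CPM, and AT3G04050 the largest fall.

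The 3 exon regions that rose lay in unrelated genes. SCPL12, a serine carboxypeptidase-like protein, had 38.9, 38.4, 50.7 and 54.1 CPM in a region centred on exon 9 (chr2:9755516-9756430) and 45% exonic, with a log2 change of 0.44 (SE 0.06, adjusted p = 0.0383). AT5G49665, a RING finger protein of the type found in ubiquitin ligases, had 47.5, 53.1, 66 and 65.5 CPM in the coding part of exon 2 (chr5:20167017-20167860), with a log2 change of 0.38 (SE 0.06, adjusted p = 0.0458). The noncoding RNA AT4G16748 had 55.5, 52.4, 68.7 and 66.1 CPM (chr4:9418035-9418934), with a log2 change of 0.32 (SE 0.05, adjusted p = 0.0463).

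The highest log2 change of any 3' end was 0.51, in a region that was not called. Among the 7 called 3' ends that rose, the largest rise was past AT1G60160, a potassium transporter family gene. Its region had 44.2, 48.3, 65.6 and 63.1 CPM (chr1:22187218-22188112). The log2 change was 0.47 (SE 0.06, adjusted p = 0.0359), and the midpoint lay 365 bases past the gene end. The other 6 that rose were at CYP71B12 (0.37), a cytochrome P450, AT5G24880 (0.35), AT1G18830 (0.33), a WD40 repeat protein, AT1G67900 (0.32), of the NPH3 family of phototropic response proteins, AT1G29250 (0.31), an Alba DNA- or RNA-binding protein, and HRD (0.28), a transcription factor of the AP2/ERF family. None of the 7 touched a second gene body, and CYP71B12 had the closest replicates, with 40.5, 40.8, 52.7 and 52.5 CPM.

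The 3 regions that fell were all at 3' ends. The largest fall was past AT3G04050, a pyruvate kinase family gene, with 49.6, 45.1, 31.5 and 29.6 CPM (chr3:1051505-1052256). Its log2 change was -0.63 (SE 0.07, adjusted p = 0.0325). MEF8S, a pentatricopeptide repeat protein of the family that acts in RNA editing of organelles, had 48.8, 41.1, 28.8 and 30.6 CPM and a log2 change of -0.59 (SE 0.09, adjusted p = 0.0437), in a region that also touches AT4G32460. AT4G14500, a lipid transport superfamily protein, had 43.8, 43.8, 30.5 and 34.2 CPM and a log2 change of -0.44 (SE 0.07, adjusted p = 0.0482), in a region that also touches AT4G14510.

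Each library was counted in its own peaks, and at MEF8S these were narrower under stress, with 731, 489, 373 and 369 bases in control replicates 1 and 2 and stress replicates 1 and 2. At AT3G04050 they were 745, 638, 489 and 460 bases wide. With the log of the peak width as an offset in edgeR, the change of AT3G04050, the largest fall, shrank from -0.63 to -0.09 and was no longer called (adjusted p = 0.353). That of MEF8S turned to 0.09 (adjusted p = 0.620). At AT4G14500 the widths were 948, 928, 886 and 947 bases, and the change with the offset was -0.41 (adjusted p = 0.0303).

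Starts of the same genes were not called together with these regions, but few starts were called at all. Among the 17 regions that rose, 8 host genes had a shared region at their start. Those starts had log2 changes from -0.17 to 0.24, of which 3 were above 0. None was called, where 0.893% of all gene-start regions were called. Over the 1040 regions with such a start, the 2 changes had the same sign in 551 (53.0%), and Pearson's r across regions was 0.08. In none were both called, but only 10 of these starts were called, so these counts say little. Both values of a pair come from the same 4 libraries, and regions are not independent replicates.

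The mix of nuclei differed between libraries, and most regions that rose were more open in nuclei that had a higher share in the stress libraries. Of 7 clusters of nuclei built on gene-start regions, the one with the highest counts (a median of 6444 cut sites per nucleus, here cluster 1) held 10.2% and 17.5% of nuclei under control conditions but 25.9% and 25.6% under stress. Another cluster held 30.9% and 21.3% under control conditions and 16.3% and 16.7% under stress. No cluster could be given a cell type from the marker loci. Of the 17 regions that rose, 14 had a higher CPM inside cluster 1 than outside it in all 4 libraries. This held for 29.99% of all gene-body regions and 36.0% of all shared regions. The choice of the 17 by their rise over all nuclei favours such regions. PHT1;8 had a mean of 59.2 CPM inside and 27.2 outside, YSL7 76.9 and 35.9, and AT2G31110 80.9 and 38.3.

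Within each set of nuclei the direction was kept, which the choice of these regions favours, since they were called on the sum of both sets in the same libraries. All 17 were higher under stress inside cluster 1, by 0.02 to 0.56 with a median of 0.24, and outside it, by 0.16 to 0.42 with a median of 0.32, against a median of 0.36 over all nuclei. Inside, 8 of the 17 were called and outside 5, where 8.96% and 0.905% of all shared regions were called. For the same reason nothing is read from these counts. For 10 of the 17 the change was smaller in both sets than over all nuclei, PHT1;8 among them (0.56 inside and 0.42 outside, against 0.70). For HRD it was 0.02 and 0.17, against 0.28.

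**Figure D4:**
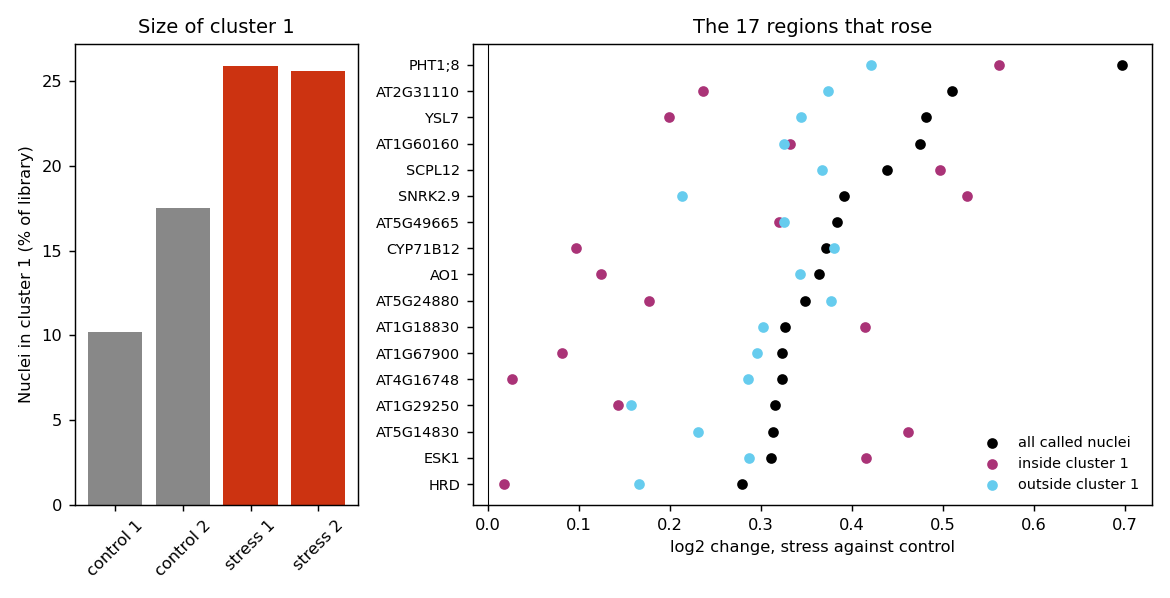
Nuclei of the cluster with the highest counts. Left, its share of the called nuclei of each library, lowest for control replicate 1 (10.2%) and highest for stress replicate 1 (25.9%). Right, log2 change of stress against control for the 17 regions that rose, over all called nuclei (black), inside cluster 1 (purple) and outside it (light blue), all above 0.

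The 3 regions that fell were lower under stress in both sets of nuclei, with log2 changes inside and outside cluster 1 of -0.81 and -0.59 for AT3G04050, -0.57 and -0.64 for MEF8S and -0.24 and -0.42 for AT4G14500. All 3 were called outside cluster 1, and AT3G04050 and MEF8S also inside. The classes differed in their level there too. In all 4 libraries 621 of 1145 3' ends (54.2%) were lower inside cluster 1 than outside it. The same held for 170 of 360 exon regions (47.2%) and 89 of 229 intron regions (38.9%), against 37.5% of all shared regions. At gene starts, on which the clusters were built, the share was 34.3%. Inside cluster 1 the median log2 change was 0.06 for 3' ends, 0.06 for exon regions and 0.07 for intron regions, and outside it was -0.04, 0.01 and 0.03, so the direction of the 3' ends differed between the sets. How far the mix of nuclei accounts for the class medians or for the regions that rose was not tested.

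Genes of 3 lists, written only in part from general knowledge, gave 11 members, none of them called. Over all shared regions 1.15% were called, so the lack of a call among 11 members says little. The osmotic stress and ABA list includes genes that the study reports as more highly expressed under stress in these samples. Among them are the WRKY factors and the phosphate transporter described below, so that list is not independent of these data. Of 30 osmotic stress and ABA genes 6 held a member, with a median log2 change of -0.02. The largest was in intron 4 of AT4G11230 (RBOHI), a respiratory burst oxidase, with 45.2, 38.6, 50.2 and 47.3 CPM and a log2 change of 0.22 (SE 0.08, adjusted p = 0.169). CYP707A1, which breaks down ABA, had 50.1, 51.7, 49.8 and 49.3 CPM around its intron 6, and the 3' end of PP2CA, a phosphatase that holds back ABA signalling, had 70.7, 73.9, 66.9 and 71.6 CPM. The groups did not overlap at AT4G11230 or CYP707A1 and did at PP2CA. They did not overlap in 58.5% of all shared regions either.

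The 3' ends of WRKY11 and WRKY17, related factors that bind TTGACC, had log2 changes of 0.00 and -0.07, and that of the phosphate transporter PHT1;1 had 0.10 (adjusted p = 0.978, 0.572 and 0.643 by edgeR). PHT1;1 belongs to the family of PHT1;8, the intron region with the largest rise. Its 3' end had 28.9, 22.5, 28.1 and 27.0 CPM, and its groups overlapped.

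Among 27 regulators of root development, 3 genes held 4 members. WOL, the cytokinin receptor AHK4, had a pair of regions at intron 2 (2013 bases) of its transcript with the most exons. The nearer to the gene start, an intron region, had 39.0, 44.9, 44.3 and 47.7 CPM. The other lies over starts of shorter transcripts and belongs to the exon class, since annotated exons cover all of it. It had 38.3, 39.5, 40.9 and 40.1 CPM. The 3' end of PLT2, a factor that maintains the root stem cell niche, was among the less open with 29.4, 23.2, 25.7 and 23.0 CPM. CPC, a small MYB protein that promotes root hair fate, had 66.1, 66.4, 64.1 and 66.3 CPM past its end. Of 10 genes listed for intronic or 3' elements only AGL6, a MADS-domain factor, held a member, with 83.5, 87.3, 80.8 and 80.5 CPM and a log2 change of -0.08 (SE 0.05, adjusted p = 0.373).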

How the data were processed

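ATAC counts of nuclei from Arabidopsis root tips were used from 2 control and 2 stress libraries. Cell Ranger ARC 2.0.2 with a TAIR10 reference was used by the authors per the file headers. Peaks were called library by library, and the authors deposited raw counts for all barcodes, counted in each library's own peaks. Of these values 73.7% to 75.9% were even, so they are cut sites, mostly 2 per fragment. Called nuclei (6069 and 12068 control, 15302 and 14552 stress) had an ATAC count between 1000 and 100000 and an RNA count between 1000 and 25000, the limits of the study. The study's other filters need fragments and were not applied, and no doublet caller was run. The study kept far fewer nuclei than are used here in both groups. ATAC totals ran from 47853119 to 75473335 per library, and the median count per library was 2278 for a gene-body region. Between 124 and 342 barcodes of called nuclei were shared by 2 libraries.

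Peaks overlapping by at least 1 base were merged. Genes were those RefSeq annotates on TAIR10.1. Left out were 11.5 to 17.7 Mb of chromosome 1, 1.1 to 7.2 Mb of 2, 10.3 to 17.3 Mb of 3, 1.5 to 2.3 and 2.8 to 6.3 Mb of 4, and 9.0 to 16.0 Mb of 5. Summed counts were compared with edgeR 4.0.16 (TMM, filterByExpr, quasi-likelihood test, Benjamini-Hochberg over all shared regions, threshold 0.05), R 4.3.3. Standard errors were derived from the F statistic. On simulated counts for this comparison over 18340 regions, 97% of changes of 0.5 and 100% of changes of 1 (log2) were recovered. Of the simulated calls 5.29% were false. The simulation gave all regions and libraries the same dispersion, so these shares do not carry over to the data. There, an exon region with a change of -0.57 was not called. Nuclei were grouped into 7 clusters by k-means on gene-start regions, with scikit-learn 1.9.0. Alternatives were DESeq2 1.42.0, other scalings, filters, nuclei, windows and splits, and each library left out. The fits within clusters were added after seeing the data.

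The regions and lists were chosen with earlier results of these data known. Members named are those called, the 3 highest per class in CPM per kb, and those in 3 gene lists. Levels in nuclei with open marker loci were planned but not reported. They were left out because held-out loci of the same list were 0.850 to 1.30 times as open in such nuclei as in all called nuclei. The median was 1.02 over 48 checks, and 33 of 74 loci had a shared region at their start. RNA counts served only to call nuclei.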

Additional observations from a re-analysis of the deposited data

How the results depend on the processing

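The number of gene-body regions past the threshold (20, against 210 of all shared regions) was the least stable value. It was 257 (2270 of all) by DESeq2, 49 (425) with the peak width as an offset, 10 (106) without the 5% of nuclei with the highest counts, 5 (59) with library totals in place of TMM, and 0 (4) among the 615 members with at least 50 CPM in every library, where fewer regions were tested and edgeR gave 176 members an unadjusted p under 0.05. With 1 library left out it ran from 3 to 889 (36 to 7947 of all), in fits that assume the lone library of a group to vary like the other group. Inside cluster 1 it was 212 (1643 of all) and outside it 13. With the replicate number as a replicate block 100 (865 of all) were called, but same-numbered libraries did not deviate together (correlation -0.0095), so they share only a number. RLE factors, no filter, fragments, all barcodes and peaks over at least 50% of the region kept the count within 1.5 times. All 20 called members kept their direction under these alternatives where tested, except MEF8S, at 0.089 with the width offset. That offset also ended the calls of AT3G04050 (-0.092), ESK1 (0.14) and AO1 (0.28), so 2 of the 3 falls rest on counts not scaled to peak width. The cause was not tested for the other counts.

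The share of counts in gene-body regions differed by 0.00 percentage points between the groups, with 0.0734 over all barcodes, 0.0057 without the top nuclei and -0.0217 to 0.0123 with 1 library left out, so no direction can be given. The lower level than at gene starts kept its direction under every alternative run. The split into classes also moved. By bases and a 200-base window at the gene end, 637 members were 3' ends, 879 exonic and 218 intronic. That split weighs only the bases inside genes. A region centred further past a gene end can thus count as exonic from few bases, as at AGL6, whose region was 6.41% exonic.

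Members not called changed sign in places. With the width offset PLT2 was at 0.011, PP2CA 0.0088, CPC 0.061 and WRKY11 0.019. Inside cluster 1 PLT2 was at 0.31, PHT1;1 -0.047, AT4G03585 -0.033, AT4G37690 -0.18, DTA2 -0.11, the WOL regions -0.066 and -0.017, AT1G15800 -0.16 and AT4G11230 -0.049. Outside it CPC was at 0.0063 and WRKY11 at 0.056. WRKY11 was at 0.00049 with the block, 0.00042 with fragments and 0.000704 over all barcodes, and AT4G37690 at -0.0064 with at least 50 CPM. With 1 library left out PLT2 ran from -0.27 to 0.068, WRKY17 from -0.17 to 0.039, WRKY11 from -0.12 to 0.12, PHT1;1 from -0.0699 to 0.29, AT4G37690 from -0.0702 to 0.091 and DTA2 from -0.047 to 0.087. The causes were not tested.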

Other observations

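Product names of the host genes were counted in 10 groups that were chosen after the leading members had been seen, so the counts are a description. Glycosyltransferases were 16 of 1636 protein-coding host genes (0.978%), against 107 of 27444 coding genes (0.390%). Cytochrome P450 enzymes were 31 (1.89%), against 0.823%, and 15 of their 31 regions were in exons, as at CYP86A4. Transporters were 50 (3.06%), against 2.25%, with 18 of 51 regions in introns. Names with a transcription factor or DNA-binding term were 112 (6.85%), against 5.27%, and kinases 93 (5.68%), against 5.01%. Pentatricopeptide repeat proteins were 7 (0.428%), against 1.03%, F-box proteins 21 (1.28%), against 2.38%, and ribosomal proteins 1 (0.0611%), against 0.386%, while no peroxidase by this name was among the hosts of 37 in all. Host genes are longer than other genes, and these shares were not corrected for length.

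Barcodes with at most 100 counts, too few to be nuclei, had 6.72%, 7.08%, 6.72% and 6.32% of their counts in gene-body regions, in control replicates 1 and 2 and stress replicates 1 and 2, below the share in called nuclei of every library.

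The 56 members that lay within 50 bases of a start window had a median of 48.8 CPM and a median log2 change of -0.02, with none called. The 64 regions left out for an overlap of at most 50 bases with such a window had 49.95 CPM and -0.02, with 2 called. Since 1.15% of all shared regions were called, calls in sets this small show no difference across the window edge.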
